A study of Homo sapiens with 60 samples.

Results

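Aconiti Lateralis Radix Preparata is the processed lateral root of aconite, and its water extract was given to SW1783 cells, an established human astrocytoma line, for 24 h. The comparison described here sets the high dose of 500 µg/mL against the medium dose of 100 µg/mL, with 3 libraries each, chosen by their sample titles. These are 6 of the 60 libraries of the series, and the question was which responses level off, reverse or start only above 100 µg/mL. The low dose of 20 µg/mL (3 libraries) served to measure the step below, and the medium and high doses of Bupleuri Radix, another root extract whose samples carry codes of the same set, served as a comparison of the same step. All groups were the same line in L-15 medium with serum, and the labels name no genetic change or further agent in any of them. The model is thus 1 cell line. The vehicle group (3 libraries) held 0.1% DMSO by the sample labels but 2% by the design text, and it has codes of another set, so code set and treatment cannot be told apart against it, and how much DMSO the extract groups held is not stated in the labels. The labels number replicates without saying that they were separate cultures, so p-values rest on the spread among these libraries, and that spread may be technical.

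As background, aconite roots hold diterpenoid alkaloids that act on voltage-gated sodium channels, and processing of the root changes the alkaloids. Cells meet stress with several programmes that are read out as sets of mRNAs. The factor ATF4 raises genes of amino acid supply and stress signalling, the unfolded protein response raises chaperones of the endoplasmic reticulum (ER), NRF2 raises antioxidant genes, NF-kB raises cytokines, p53 raises cell cycle inhibitors, and SREBP2 raises cholesterol synthesis when sterols in the ER membrane are low.

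Total counts were 18.96 to 24.2 M in the high-dose libraries (M, 1e6 counts), 18.86 to 23.6 M at the medium dose and 19.76 to 21.77 M at the low dose. By the root mean square deviation from its group, 0.0584 to 0.0755 on the log2 scale, no Aconiti library stood apart. By the chi-square of the counts per degree of freedom, low-dose replicate 1 did. It gave 3.9 and 4 against low-dose replicates 2 and 3, which gave 2.91 against each other. Pairs within the medium and the high dose gave 2.15 to 2.9. Mitochondrially encoded genes took 6.96% ± 0.559 of the counts at the low dose, 10.7% ± 0.162 at the medium dose and 9.19% ± 0.169 at the high dose (SD, n = 3 each), against 5.14% ± 0.134 in the vehicle. Markers of astrocytes were only partly present, since 8 of 13 listed markers were tested, and the defining markers GFAP, S100B and AQP4 reached at most 6, 5 and 0 counts in any vehicle or Aconiti library. CD44 and VIM, which many other cells also express, were abundant, with VIM at 5332 to 5420 CPM at the high dose, CPM being counts scaled to a common library size. The cells are therefore called by their line name.

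Between the medium and the high dose, 8092 of 17190 genes tested were called, which is 47.1% (edgeR, adjusted p under 0.05). Of these, 4261 (24.8%) rose and 3831 (22.3%) fell. With upper quartile scaling the split turned to 3458 rises and 4707 falls, so the balance of both directions depends on the scaling. Changes of at least 2-fold were less frequent, with 340 rises (1.98%) and 502 falls (2.92%). The 3 high-dose libraries all lay above the 3 medium-dose libraries in 4974 genes (28.9%) and all below in 4497 (26.2%). The step below, from 20 to 100 µg/mL, called 3507 genes (20.4%), of which 10.9% of all genes tested rose and 9.5% fell. The upper step minus the lower step differed from 0 in 2955 genes (17.2%), upward in 8.88% and downward in 8.31%. The median absolute log2 change over all genes was 0.24 in the upper step and 0.13 in the lower step. Both steps are 5-fold in dose and share the medium libraries, which enter them with opposite signs.

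Each gene was then placed by both steps. A response was said to start above 100 µg/mL when the upper step was called with an absolute log2 change of at least 0.5, the lower step was not called with a 95% interval within -0.3 to 0.3, and the difference of the steps was called. This held for 331 genes (1.93%), of which 169 (0.983%) rose and 162 (0.942%) fell. The mirror rule, a lower step with no further change, found 8 genes (0.0465%). Opposite steps that were both called, with a called difference, were found in 172 genes (1.0%), of which 65 (0.378%) fell and then rose and 107 (0.622%) rose and then fell. Noise in the shared medium libraries pushes the steps apart, which favours this last class, and 43 of its genes had both steps at 0.3 or more. The remaining common class was change in the same direction in both steps, with 2512 genes (14.6%), of which 801 (4.66%) were steeper in the upper step and 48 (0.279%) shallower. Across 18 other fits (other scaling, filters and models, or with 1 or 2 libraries left out), 104 of the 331 late-starting genes, 3 of the 8 levelling genes and 51 of the 172 reversing genes kept their class in every one.

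**Figure D1:**
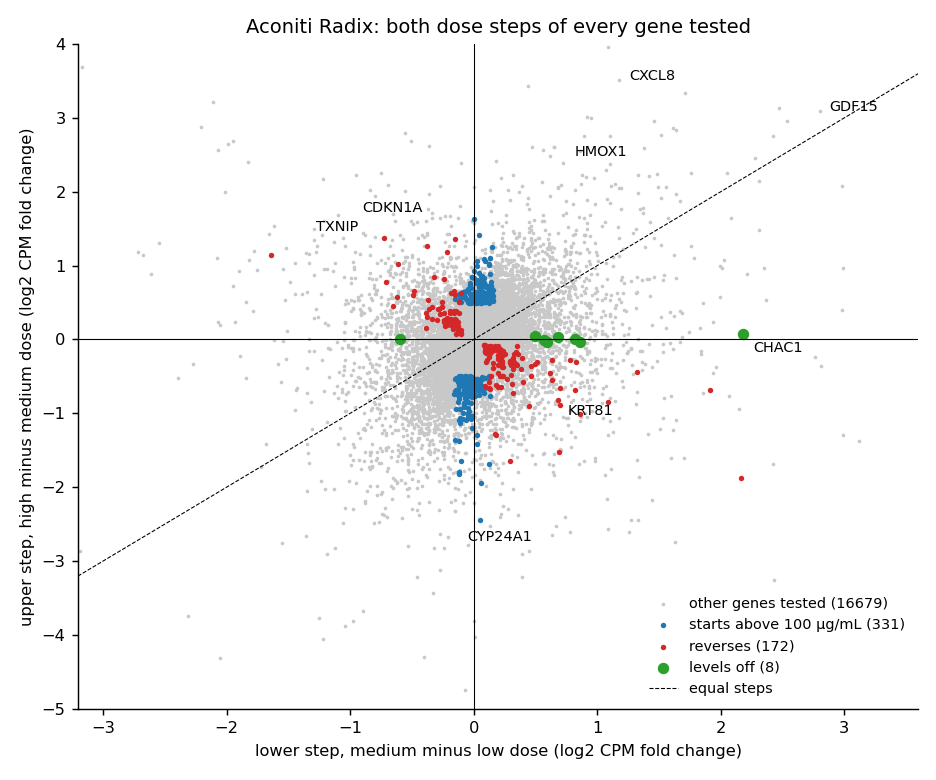
Log2 fold change of every gene tested in the lower step (x axis, medium minus low dose) and the upper step (y axis, high minus medium dose), 3 libraries a group, with 50 genes beyond the axes. Late-starting genes (331, blue) lie near 0 on the x axis, reversing genes (172, red) lie at the upper left and lower right, and the 8 levelling genes (green) lie near 0 on the y axis.

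Inflammatory genes were the list with the highest median in the upper step among the 53 lists examined. CXCL8, the neutrophil-attracting chemokine interleukin 8, stood at 4.38, 3.24 and 4.92 CPM at the low dose, 8.73, 10.8 and 8.76 CPM at the medium dose and 109, 114 and 100 CPM at the high dose. The 3 dose groups did not overlap, and the high-dose libraries stood far above the others. CXCL8 rose by 3.51 ± 0.0783 on the log2 scale (SE; 11.4-fold) from medium to high (adjusted p = 7.2e-37), against 1.18 from low to medium, and the steps differed (adjusted p = 5.41e-14). Its neighbours in the same chromosome 4 cluster, which bind the same class of receptors, were scarce and showed the same order: CXCL3 had 1.08, 1.43 and 1.35 CPM at the medium dose and 11, 11.9 and 11.2 CPM at the high dose. CXCL2 went from 1.2, 1.89 and 1.82 CPM to 10.9, 12.6 and 12.2 CPM. CXCL1 reached only 2.65, 2.6 and 2.88 CPM at the high dose, from 0.184 to 0.326 CPM, and its lower step was not called (adjusted p = 0.654).

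The promoters of these 4 chemokine genes are shown because they moved together and hold the same letters, GGAATTTCC, a kappa-B type sequence of the kind NF-kB binds. The stretches are from RefSeq (GRCh38.p14), 5′ to 3′ on the strand of the gene, with the match in capitals. CXCL8 is on the plus strand at chr4:73740443-73740521, CXCL1 on the plus strand at chr4:73869280-73869358, CXCL2 on the minus strand at chr4:74099229-74099307 and CXCL3 on the minus strand at chr4:74038724-74038802.
CXCL8: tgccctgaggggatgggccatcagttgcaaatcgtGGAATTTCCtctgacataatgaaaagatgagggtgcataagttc
CXCL1: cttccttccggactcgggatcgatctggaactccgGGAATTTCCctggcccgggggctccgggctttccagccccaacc
CXCL2: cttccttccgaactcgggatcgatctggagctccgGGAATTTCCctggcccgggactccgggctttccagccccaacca
CXCL3: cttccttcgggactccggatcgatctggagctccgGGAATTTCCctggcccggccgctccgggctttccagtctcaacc
The match begins 91 bases before the start of CXCL8, 78 before CXCL1 and CXCL3 and 77 before CXCL2. The last 3 are close paralogs whose promoters are alike over the whole stretch, so reads of these genes may also have been divided by estimate. On either strand, within 250 bases before the start, GGAATTTCC was present in 8 of the 19 listed NF-kB targets with a window and in 0.502% of 27305 genes. A looser kappa-B pattern that overlaps it was also searched and found in 2.12% of genes. These matches describe the letters and show no binding.

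The other listed NF-kB targets and cytokines mostly followed. Of 24 tested, 20 rose, 2 fell and 2 were not called in the upper step, with a median of 1.08 on the log2 scale against 14 rises, 3 falls and a median of 0.45 in the lower step. For 12 of the 24 the upper step was called as more positive than the lower. IL6, a fever and acute phase cytokine, had 9.3, 7.31 and 6.19 CPM at the medium dose and 42.1, 47 and 43.2 CPM at the high dose, a rise of 2.55 ± 0.107 (adjusted p = 1.25e-25) with no overlap. LIF, a cytokine of the IL6 family, went from 39.2, 37.5 and 31.7 CPM to 125, 116 and 114 CPM. ICAM1, an adhesion molecule for leukocytes, also rose without overlap, from 89.6, 94.1 and 94.6 CPM to 181, 177 and 185 CPM. NFKBIA, which encodes the NF-kB inhibitor IkB-alpha, was the late starter of the list: it had 37.9, 33.4 and 35.3 CPM at the medium dose and 51.3, 52.7 and 51.8 CPM at the high dose, after a lower step of -0.15 that was not called (adjusted p = 0.0578). CCL2 and IL11 were the listed members that fell, by 0.28 and 0.72 on the log2 scale, while NFKB1 (log2 0.08, adjusted p = 0.235) and TNFAIP2 were not called.

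ATF4 targets had already risen at the medium dose, and here the upper step was often the smaller one. Of 30 tested, 28 rose, none fell and 2 were not called from medium to high, with a median of 0.62, whereas the lower step called 29 rises with a median of 1.08. The difference of the steps was called as negative in 17 and as positive in 2. ASNS, asparagine synthetase, had 66.5, 69.6 and 65.1 CPM at the low dose, 204, 209 and 214 CPM at the medium dose and 362, 375 and 376 CPM at the high dose. It therefore still rose, by 0.83 ± 0.0317, but by less than the 1.64 of the lower step (adjusted p of the difference = 5.92e-16). TRIB3, a pseudokinase induced by ATF4 and CHOP, rose by 2.31 and then by 1.48 ± 0.0456, from 28.2, 27 and 28.2 CPM to 133, 141 and 140 CPM and to 386, 387 and 382 CPM.

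CHAC1, which encodes an enzyme that degrades glutathione, was the clearest gene to level off. It had 7.31, 5.54 and 7.02 CPM at the low dose, 30.3, 28.5 and 31.5 CPM at the medium dose and 31.6, 30.1 and 33.7 CPM at the high dose. The high and medium libraries overlapped, the upper step was 0.08 ± 0.0789 (adjusted p = 0.445), and the lower step was 2.18 (adjusted p = 3.94e-24). The other genes whose class held in all 18 other fits were PODXL, which encodes the surface sialomucin podocalyxin, and AK5, an adenylate kinase. PODXL had 86.4, 79.1 and 76.3 CPM at the low dose, 128, 133 and 127 CPM at the medium dose and 132, 134 and 132 CPM at the high dose. AK5 had 5.04, 4.84 and 5.02 CPM, then 8.9, 8.37 and 9.03 CPM, then 8.11, 9.64 and 8.54 CPM. JDP2, a repressor of AP-1 and ATF sites, kept the class in 16 of the 18 fits, while GALNT6 kept it in 4 and PSG5 in 5.

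Some stress genes of the same list had the larger step above 100 µg/mL. DDIT3, which encodes the pro-death factor CHOP, had 97.3, 89.8 and 87 CPM at the medium dose and 388, 405 and 354 CPM at the high dose. Its upper step of 2.07 ± 0.0725 exceeded its lower step of 1.56 (adjusted p = 0.00459). ATF3, a repressor of the same family, rose from 5.93, 6.57 and 8.15 CPM to 48.4, 52.9 and 49.9 CPM, by 2.86 ± 0.1 after 1.61. GDF15, a secreted stress signal that acts on appetite, rose in nearly equal steps of 2.8 and 3.09 ± 0.0596, from 7.07, 7.29 and 7.79 CPM to 48.4, 50.6 and 54.5 CPM and to 423, 444 and 444 CPM. The difference of its steps was not called (adjusted p = 0.0967), and the upper step itself was 8.53-fold.

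Promoter stretches of 4 ATF4 targets are shown because they hold the letters TGATGNAA, the composite site of C/EBP and ATF proteins, and differ in how the upper step went. ASNS (minus strand, chr7:97872434-97872511), ATF3 (plus strand, chr1:212565181-212565258) and CEBPG (plus strand, chr19:33374036-33374112) hold it on the strand of the gene and CHAC1 (plus strand, chr15:40953227-40953304) on the opposite strand. The sequences are again from RefSeq (GRCh38.p14), with the match in capitals.
CHAC1: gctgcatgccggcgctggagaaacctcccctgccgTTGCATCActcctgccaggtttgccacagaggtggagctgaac
ASNS: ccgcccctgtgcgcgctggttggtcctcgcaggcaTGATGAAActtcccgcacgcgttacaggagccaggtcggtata
ATF3: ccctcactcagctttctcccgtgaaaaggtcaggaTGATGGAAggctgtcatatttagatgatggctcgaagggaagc
CEBPG: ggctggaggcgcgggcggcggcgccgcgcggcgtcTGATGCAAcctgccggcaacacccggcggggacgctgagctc
CHAC1 levelled off, ASNS was shallower, CEBPG had steps that were not called as different (0.91 and 0.7, adjusted p = 0.0884) and ATF3 was steeper. TGATGNAA was present in 4 of 24 listed ATF4 targets with a window and in 3.89% of all genes. The same letters stood before genes with different kinds of upper step.

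ER chaperones continued upward. Of 26 genes of the unfolded protein response, 24 rose, 1 fell and 1 was not called, with a median of 0.38 against 0.24 in the lower step. HSPA5, which encodes the chaperone BiP, had 6662, 6689 and 6507 CPM at the medium dose and 13404, 13539 and 12765 CPM at the high dose, a rise of 1.0 ± 0.0361 after 0.68. DNAJB9, a co-chaperone, went from 52.6, 58.6 and 51.5 CPM to 132, 134 and 132 CPM. Heat shock genes, mostly chaperones of the cytosol with some of the mitochondria, went the other way: of 18, 11 fell, 2 rose and 5 were not called, with a median of -0.18 in both steps. HSPA1A, the inducible HSP70, fell by 0.94 ± 0.0549, from 90, 92.3 and 97.8 CPM to 49.9, 46.9 and 49.5 CPM. HSPA9, the mitochondrial HSP70, was 1 of the 2 that rose, by 0.53.

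Most NRF2 targets rose in the upper step, as did single genes of lipid storage and export. HMOX1, heme oxygenase 1, which breaks down heme, had 72.6, 72 and 69.1 CPM at the low dose, 110, 122 and 119 CPM at the medium dose and 595, 597 and 648 CPM at the high dose. Its upper step of 2.39 ± 0.0419 was larger than its lower step of 0.72 (adjusted p = 5.65e-23). Ferritin heavy chain (FTH1), which stores iron, rose by 1.27 ± 0.0583 after 0.54, and GCLC, the catalytic subunit for glutathione synthesis, by 1.31 ± 0.0426 after 0.61. Among the 26 tested targets of NRF2, 19 were called as rising, 2 as falling and 5 as neither, with a median of 0.36, against 12 rises and a median of 0.10 in the lower step. PLIN2, the coat protein of lipid droplets, went from 110, 109 and 113 CPM to 596, 647 and 604 CPM, which is 2.48 ± 0.0355 after 0.62. ABCA1, the exporter of cholesterol and a target of the sterol receptor LXR, went from 88.4, 83.3 and 89.1 CPM to 371, 374 and 361 CPM, which is 2.08 ± 0.0409 after 0.39. Of the 10 LXR and cholesterol efflux genes tested, 5 rose, 1 fell and 4 were not called, with a median of 0.28. Lysosome and autophagy genes rose in 24 of 37, by a median of 0.15, and the autophagy receptor SQSTM1 by 1.15 ± 0.0365.

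**Figure D2:**
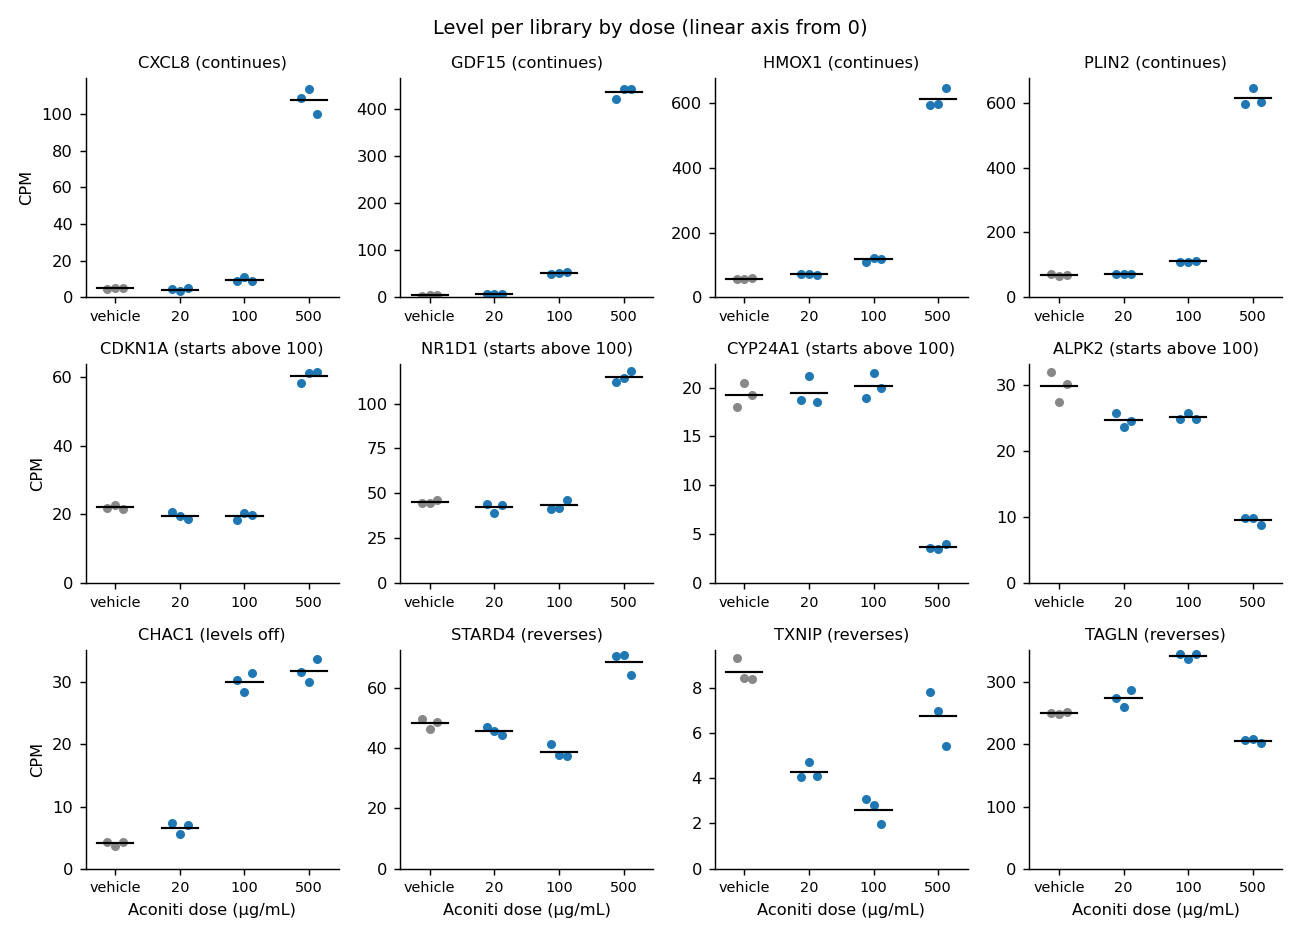
CPM (y axis, linear from 0) in each of the 3 libraries (points) and their mean (line) for the vehicle and the 3 Aconiti doses, for 12 genes. CXCL8, GDF15, HMOX1 and PLIN2 are highest at 500 µg/mL, CDKN1A and NR1D1 rise and CYP24A1 and ALPK2 fall between 100 and 500 µg/mL after a level step from 20, CHAC1 is level from 100 µg/mL, and STARD4, TXNIP and TAGLN turn at 100 µg/mL.

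The cell cycle inhibitor p21, encoded by the p53 target CDKN1A, started only above 100 µg/mL. CDKN1A had 20.7, 19.4 and 18.7 CPM at the low dose, 18.5, 20.3 and 19.9 CPM at the medium dose and 58.4, 61.2 and 61.7 CPM at the high dose. The low and medium libraries overlapped, with a 95% interval of the lower step of -0.15 to 0.15, and CDKN1A then rose 3.09-fold (log2 1.63 ± 0.0651, adjusted p = 2.3e-26). Its class held in all 18 other fits. MDM2, the ubiquitin ligase that degrades p53, had 49.2, 43.6 and 47.7 CPM at the medium dose and 69.4, 73.7 and 67.4 CPM at the high dose, also with no called lower step. DDB2, a DNA repair factor, and TP53INP1 were the other p53 targets of this class, with upper steps of 0.52 and 0.76. The whole list was mixed, with 13 of 24 rising, 3 falling, 8 not called and a median of 0.38. Death genes of the list were split: TNFRSF10B, a death receptor, rose by 1.52 ± 0.0357 and BBC3, which encodes the BCL2 antagonist PUMA, by 1.78 ± 0.241, both after called lower steps, while BAX (log2 0.05, adjusted p = 0.497) and FAS were not called.

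Of 18 clock genes tested, 2 were late starters, NR1D1 and PER1. NR1D1, which encodes the repressor REV-ERB alpha, had 43.9, 39.1 and 43.6 CPM at the low dose, 41.3, 42 and 46.4 CPM at the medium dose and 112, 114 and 118 CPM at the high dose. It rose by 1.41 ± 0.0824 (adjusted p = 5.33e-20), and its lower step was 0.04. PER1, a clock repressor that also answers to cAMP signals, was level at first and then rose from 28.7, 31 and 28.9 CPM to 43.5, 48.2 and 46.6 CPM, although its class was lost with no scaling factors. Of the same 18 genes, 15 rose, 2 fell and 1 was not called, with a median of 0.62 against 0.08 in the lower step, a lower value that becomes -0.01 with no scaling factors. The steps differed upward in 10 of these 18. PDE4D, a phosphodiesterase that degrades cAMP, was late in all 18 other fits, from 33.5, 34.7 and 33.1 CPM to 54.5, 53.1 and 49.9 CPM. Of 14 cAMP targets tested, 10 rose, 1 fell and 3 were not called, while only 2 rose in the lower step.

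Further late rises came from transcription factors and secreted factors. IRF1, the interferon regulatory factor 1, had 26.5, 25.7 and 27.2 CPM at the medium dose and 61.6, 64.6 and 63.2 CPM at the high dose, with an upper step of 1.25 ± 0.0511 after 0.15 (adjusted p of the lower step = 0.0559; the class was lost without the low-dose replicate 2). SREBF1, the factor of fatty acid synthesis, went from 47.2, 46.9 and 51.5 CPM to 87.7, 85 and 89.5 CPM. HGF, the hepatocyte growth factor, and MMP1, the interstitial collagenase, rose by 0.64 ± 0.0456 and 0.72 ± 0.0499. CLCN6, a chloride-proton exchanger of late endosomes, rose by 1.06 ± 0.0594, from 31.8, 32.5 and 36.3 CPM to 68.1, 68.7 and 73 CPM.

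Late falls were led by CYP24A1, the enzyme that inactivates vitamin D. CYP24A1 had 18.7, 21.2 and 18.5 CPM at the low dose, 18.9, 21.5 and 20 CPM at the medium dose and 3.57, 3.5 and 3.99 CPM at the high dose. The first 2 doses overlapped and the third was far below, a fall by 2.45 ± 0.0814 on the log2 scale (5.46-fold, adjusted p = 1.05e-29). ALPK2, an alpha kinase, fell by 1.41 ± 0.0795, from 24.8, 25.8 and 24.8 CPM to 9.78, 9.91 and 8.77 CPM, and its class held in all 18 other fits. THBS1, the matrix glycoprotein thrombospondin 1, fell from 1509, 1531 and 1440 CPM to 518, 460 and 460 CPM, by 1.64 ± 0.0404. Its lower step of -0.1 lay close to the limits (adjusted p = 0.07), and it kept the class in 8 of the 18 fits, losing it among others with replicate numbers as a block. ID1 and ID3, inhibitors of differentiation that BMP signals induce, were late too. ID3 went from 204, 230 and 222 CPM to 83.4, 77.9 and 90.6 CPM, a fall by 1.38 ± 0.063, and ID1 fell by 1.02 ± 0.0776. ID2 fell by 1.99 ± 0.094 after a called lower step of -0.42. Of 21 genes of the ID and BMP list, 14 fell, 4 rose and 3 were not called, with a median of -0.72 against -0.15 in the lower step, and the difference of the steps was called as negative in 13. Among the risers were GREM1 (1.14), a BMP antagonist, and BMP2 (0.73), a BMP ligand, while the ligand BMP4 fell by 1.84.

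Reversing members of the gene lists were named by rule, and the reversals described next are given in 3 groups. Of the 172 reversing genes, 7 were in the cholesterol list, 7 in the TGF-beta list and 6 among the mitochondrially encoded proteins. The first was sterol supply, of which some genes fell slightly at the medium dose and rose again at the high dose. Each sterol or lipid gene named here as reversing had a step smaller than 0.3 on the log2 scale. The stricter limit of 0.3 for both steps, met by 43 of the 172 reversals, was thus not met by these genes. STARD4, a carrier of sterols between membranes, had 47, 45.6 and 44.5 CPM at the low dose, 41.4, 37.6 and 37.5 CPM at the medium dose and 70.4, 70.9 and 64.2 CPM at the high dose. The 3 groups did not overlap, with steps of -0.24 and 0.82 ± 0.0573 (adjusted p = 0.00217 and 3.22e-17). IDI1, an isomerase of the isoprenoid part of cholesterol synthesis, went from 44.3, 45.4 and 42.9 CPM to 37.2, 35.6 and 35.3 CPM and back to 42.8, 43.8 and 43.4 CPM, so that its high and low doses overlapped. INSIG1, which holds SREBP2 in the ER when sterol is plentiful, dipped slightly from 132, 124 and 120 CPM to 108, 114 and 115 CPM and then rose to 283, 287 and 293 CPM. The dip of INSIG1 was not called as a reversal without the low-dose replicate 1. SCD, the stearoyl-CoA desaturase of fatty acid synthesis, had steps of -0.22 and 1.18 ± 0.0337.

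Of 25 genes of cholesterol synthesis and uptake, 17 rose, 4 fell and 4 were not called in the upper step, with a median of 0.41, whereas 11 fell, none rose and 14 were not called in the lower step, with a median of -0.12. Reversal was called for 7 of them, among them SC5D, IDI1, SREBF2, STARD4 and INSIG1, and HMGCS1 and SQLE were late starters. SC5D was the weakest of these, with overlapping medium and high libraries, and kept the class in 10 of 18 fits. EBP, ACAT2 and LSS, enzymes of the same pathway, went on in the upper step and fell by 0.27, 0.21 and 0.14 on the log2 scale. The steps differed upward in 15 of the 25 and downward in none. ABCA1, which exports cholesterol, rose together with the uptake and synthesis genes.

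The second group was contractile and TGF-beta responsive genes, which rose at the medium dose and fell at the high dose. TAGLN, the actin-binding protein transgelin, had 274, 261 and 287 CPM at the low dose, 345, 337 and 345 CPM at the medium dose and 207, 209 and 202 CPM at the high dose, so that the high dose lay below both others. Its steps were 0.32 and -0.73 ± 0.0511 (adjusted p = 2.24e-06 and 3.23e-17). MYL9, a regulatory light chain of myosin, rose from 233, 217 and 227 CPM to 258, 257 and 266 CPM and then fell to 189, 180 and 188 CPM, below the low dose as well. Of the 20 genes of the TGF-beta list, 17 fell, 1 rose and 2 were not called in the upper step (median -0.38), while 9 rose and 4 fell in the lower step (median 0.12). Reversal was called for 7, among them ACTA2, TAGLN, TPM1, LTBP2, MYL9 and INHBA. TPM1 kept the class in 7 of the 18 other fits and ACTA2 in 13, and TAGLN, MYL9 and INHBA in all. TGFB3, a ligand of this pathway, did not reverse: it had 17.9, 19.7 and 18 CPM, then 11.2, 10.9 and 11.1 CPM, then 2.99, 2.38 and 2.64 CPM.

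Targets of YAP, the coactivator of the Hippo pathway, behaved alike in part. Of 17, 9 rose and none fell in the lower step, and 10 fell and 4 rose in the upper step, with the medians 0.20 and -0.17. CCN2, the connective tissue growth factor, went from 83.2, 90 and 90.8 CPM to 128, 122 and 122 CPM and back to 99.9, 97.6 and 98.9 CPM. F3, tissue factor, went from 136, 129 and 135 CPM to 201, 209 and 211 CPM and to 174, 169 and 169 CPM, so that its high dose stayed above the low dose. CCN1, another target, rose in both steps (0.75 and 0.23). Other genes that rose and then fell included KRT81, a hair keratin with close paralogs that could share its reads, with 233, 243 and 229 CPM at the medium dose and 128, 136 and 135 CPM at the high dose, and CCND1, cyclin D1, with steps of 0.23 and -0.37 ± 0.05.

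The third group was the mitochondrial genome. MT-RNR2, its large ribosomal RNA, took 2.73% ± 0.14 of the counts at the low dose, 6.42% ± 0.165 at the medium dose and 4.68% ± 0.132 at the high dose, against 0.863% ± 0.0231 in the vehicle (SD, n = 3 each). MT-RNR2 fell by 0.44 ± 0.0723 in the upper step (adjusted p = 1.04e-06) after a rise of 1.32. MT-RNR1, the small ribosomal RNA, was not called in the upper step (log2 -0.16, adjusted p = 0.0972) after a rise of 1.84. The 13 proteins encoded there went the other way in part. In the lower step 9 fell and none rose (median -0.34). In the upper step 6 rose, none fell and 7 were not called (median 0.28). MT-ND3, a subunit of complex I, had 1040, 853 and 1103 CPM at the low dose, 688, 600 and 616 CPM at the medium dose and 970, 811 and 825 CPM at the high dose. Among the 6 that reversed, MT-ND3 kept the class in all fits that held mitochondrial genes. MT-ATP6 and MT-ND4 lost it without each of the 3 medium libraries in turn. Without low-dose replicate 1, which stood apart by chi-square, MT-ND4, MT-ATP6, MT-CO3 and MT-ND4L lost it. The summed level of the 13 was 34828 to 43394 CPM at the low dose and 30095 to 31114 CPM at the medium dose. At the high dose it was 35066 to 36252 CPM, within the low-dose range. The part of the share taken by MT-RNR2 in the steps of the other genes was not tested. Without mitochondrially encoded genes in the fit, 8102 genes were called in the upper step and 3477 in the lower step. That fit placed 167 genes as reversing. Among nuclear genes of oxidative phosphorylation no rise was called, with 8 of 33 falling, 25 not called and a median of -0.06.

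**Figure D3:**
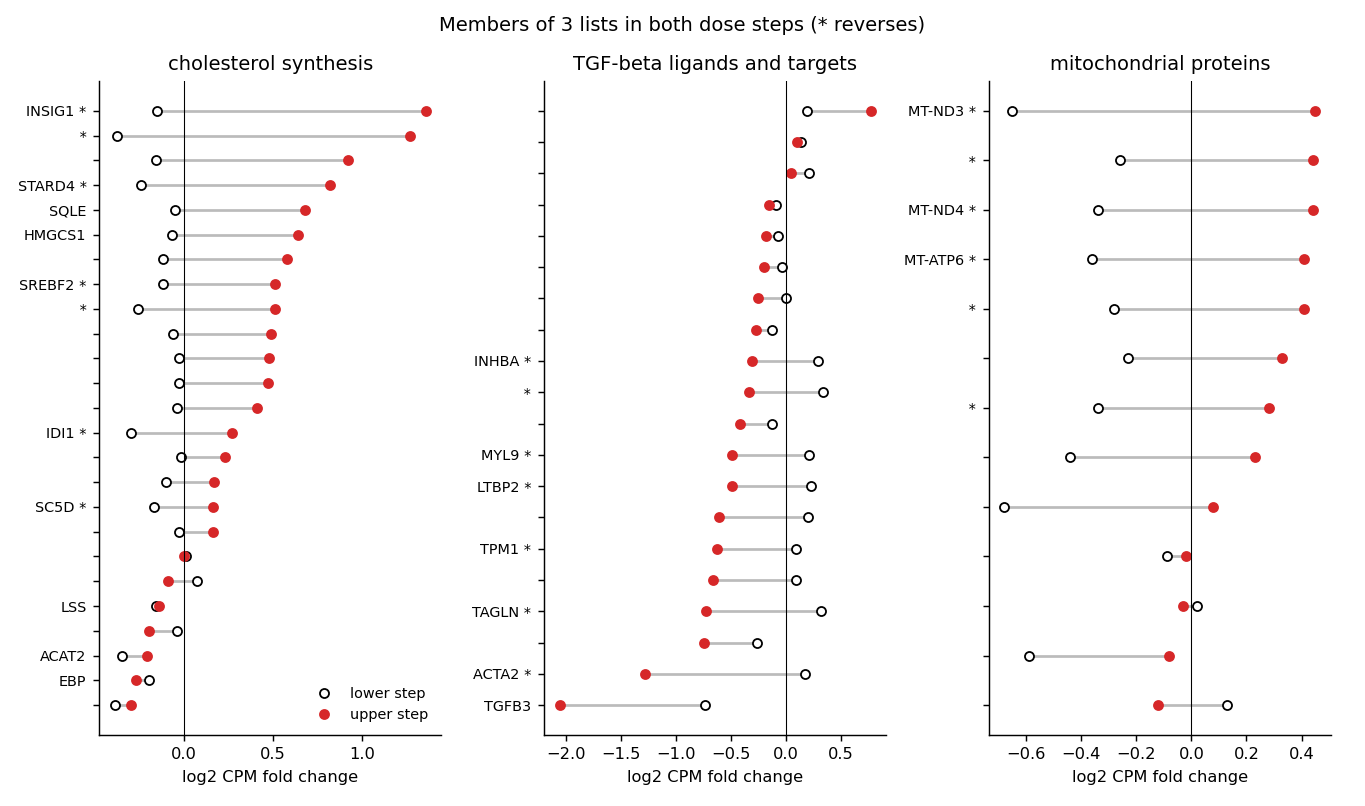
Log2 fold change of each member of 3 lists in the lower step (open circles) and the upper step (red), with reversing genes starred and the members described in the text labelled. Most cholesterol genes lie left of or near 0 in the lower step and right of it in the upper step, TGF-beta genes mostly the other way round, and 6 of the 13 mitochondrial proteins turn upward.

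TXNIP, which inhibits thioredoxin and follows glucose, and the death gene BCL2L11 (BIM) reversed outside these groups. TXNIP had 4.05, 4.74 and 4.1 CPM at the low dose, 3.08, 2.8 and 1.96 CPM at the medium dose and 7.82, 6.99 and 5.43 CPM at the high dose, with steps of -0.73 and 1.37 ± 0.141 (adjusted p = 0.000336 and 1.21e-11). BCL2L11 went from 9.05, 9.43 and 9.43 CPM to 5.76, 6.94 and 5.5 CPM and to 11.3, 13.4 and 12.2 CPM. Both held the class in all 18 other fits. In each, the 3 medium libraries lay below all libraries of the other doses. ARRDC4, which follows glucose like TXNIP, was level in the lower step (log2 -0.08, adjusted p = 0.723) and rose by 0.43 ± 0.109.

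Proliferation genes fell in both steps, and more in the upper. All 30 mitosis genes tested fell from medium to high, with a median of -0.52, against 24 falls and a median of -0.20 in the lower step, and the upper step was called as more negative in 24. MKI67, the marker Ki-67, had 193, 185 and 192 CPM at the medium dose and 111, 95.4 and 101 CPM at the high dose. ASPM, a spindle pole protein, went from 110, 105 and 105 CPM to 54.2, 54.6 and 53.8 CPM, a fall by 0.98 ± 0.0407 after 0.39 (adjusted p = 9.27e-26). TOP2A, topoisomerase II alpha, fell by 0.60 ± 0.0344. Genes of DNA replication fell evenly instead: of 35, 25 fell and 1 rose with a median of -0.27, against -0.25 below, and only 3 were called as falling more in the upper step. Tubulin genes fell in 9 of 12, with a median of -0.43. In bulk RNA, fewer cells of a type and less RNA per cell cannot be told apart.

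The promoters of 4 mitosis genes are shown because the letters TTTGAA, the core of the cell cycle homology region known from such promoters, recur there. The stretches end at the gene start at the latest, from RefSeq (GRCh38.p14), for CDC20 (plus strand, chr1:43358881-43358956), PLK1 (plus strand, chr16:23678825-23678888), CCNB2 (plus strand, chr15:59105082-59105145) and TOP2A (minus strand, chr17:40418007-40418082), with the match in capitals.
CDC20: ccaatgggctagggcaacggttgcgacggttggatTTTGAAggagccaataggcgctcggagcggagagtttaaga
PLK1: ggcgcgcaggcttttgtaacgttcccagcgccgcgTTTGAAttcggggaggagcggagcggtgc
CCNB2: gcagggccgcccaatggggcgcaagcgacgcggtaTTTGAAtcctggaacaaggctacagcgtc
TOP2A: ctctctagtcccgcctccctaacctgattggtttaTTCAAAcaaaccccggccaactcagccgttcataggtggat
TOP2A holds the letters on the opposite strand. TTTGAA was present in 14 of 25 listed mitosis genes with a window and in 16.1% of all genes. The upper steps of these 4 genes were close together, at -0.46 for CDC20, -0.52 for PLK1, -0.49 for CCNB2 and -0.60 for TOP2A. All 4 differed from the lower steps, which were -0.11, -0.21, -0.12 (not called) and -0.24.

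Most collagen genes fell too. COL1A1, the main chain of collagen I, had 3332, 3200 and 3040 CPM at the low dose, 2581, 2648 and 2453 CPM at the medium dose and 862, 804 and 802 CPM at the high dose. The fall of 0.32 in the lower step was followed by one of 1.64 ± 0.0445 (adjusted p = 2.78e-33). Of 21 collagen genes, 16 fell, 2 rose and 3 were not called, with a median of -0.36. The list of other matrix, crosslinking and protease genes was mixed, with 14 of 34 falling, 8 rising, 12 not called and a median of -0.09. Genes that mark fibroblasts and mesenchyme, which this line expresses, fell in 10 of 12 (median -0.52). Their summed level was 4645 to 4991 CPM at the medium dose and 1888 to 2021 CPM at the high dose. COL1A1 is in this list and made up a large part of that sum. SLC1A3, the glutamate transporter that marks astrocytes, fell by 1.5 ± 0.0821, from 17.6, 18.6 and 16.9 CPM to 6.33, 6.05 and 6.45 CPM. Of the 8 astrocyte markers tested, 5 fell and 3 were not called. Their summed level, much of it VIM, was 7678 to 7949 CPM at the medium dose and 7770 to 7826 CPM at the high dose. The part of these marker lists in the other falls was not tested.

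Large falls were also found in signalling genes. CCN4, a secreted WNT target, had 7.19, 7.82 and 6.66 CPM at the medium dose and 1.21, 1.3 and 1.67 CPM at the high dose, a fall by 2.36 ± 0.126. RAB7B, a small GTPase of late endosomes, fell by 2.19 ± 0.136 and VAV3, an exchange factor for small GTPases, by 2.05 ± 0.149. Each of these 3 genes also fell in the lower step, by 0.74 to 1.35. Among the large rises, NGFR, the low-affinity receptor for nerve growth factor, went from 4.16, 4.09 and 4.42 CPM to 30.5, 36 and 32.4 CPM.

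Most members of the housekeeping lists were not called. Of 50 ribosomal protein genes, 44 were not called, 5 rose and 1 fell, with a median of 0.04 that becomes -0.01 with upper quartile scaling. Of 31 proteasome genes, 24 were not called, 6 fell and 1 rose (median -0.07). Glycolysis genes split, with 13 of 21 falling and 7 rising. LDHA, which makes lactate, fell by 0.62 ± 0.0271, and HK2, hexokinase 2, rose by 0.93 ± 0.0391 from 64, 65.3 and 59.9 CPM to 124, 121 and 115 CPM.

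Sodium channel genes, the family on which aconite alkaloids act, were mostly too low to test, and 6 of 14 listed were tested. SCN9A rose and then fell, with 5.47, 5.49 and 5.53 CPM at the low dose, 6.33, 8.32 and 6.94 CPM at the medium dose and 5.58, 4.75 and 4.41 CPM at the high dose, although its reversal was lost without the medium replicate 2. SCN8A rose in both steps, by 0.41 and 0.5 ± 0.103, and SCN3A fell by 0.57 ± 0.0784. Of 22 genes of the sodium pump and calcium handling, 6 rose, 6 fell and 10 were not called. These counts were near the shares over all genes tested, of which 24.8% rose and 22.3% fell. ATP1B1, a beta subunit of the sodium pump, fell by 1.12 ± 0.0422.

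**Figure D4:**
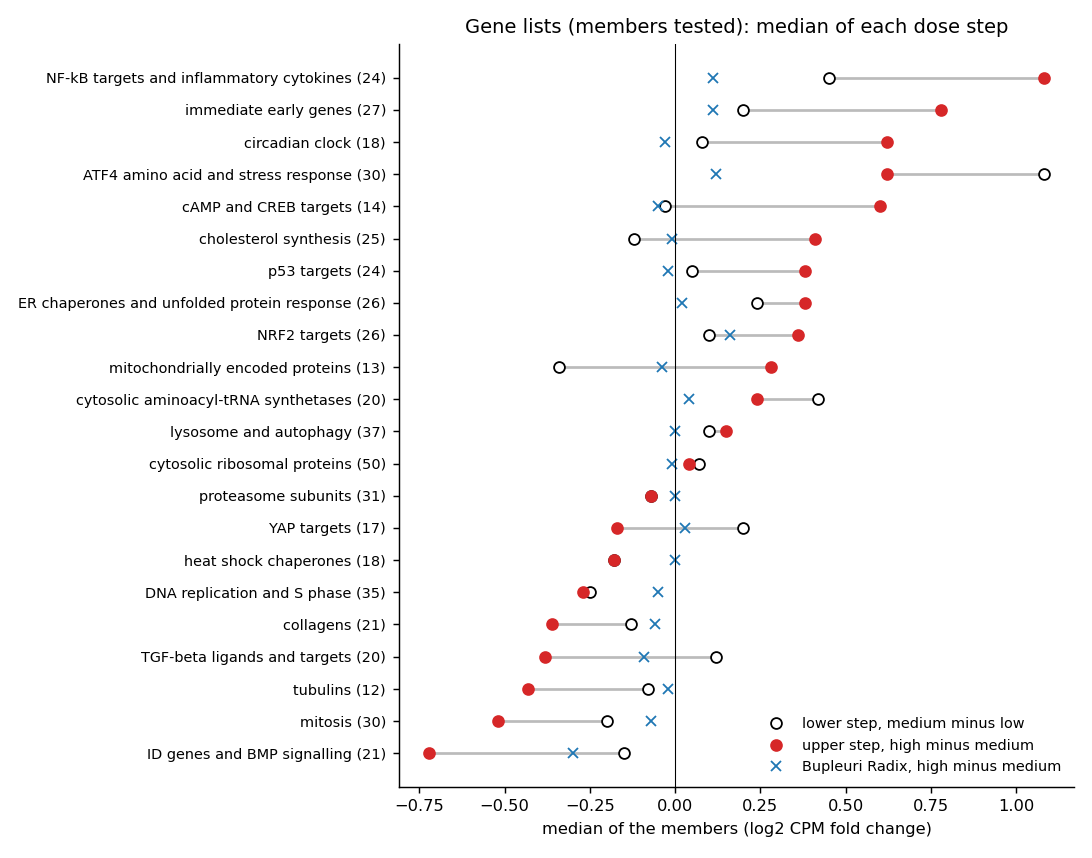
Median log2 fold change over the members of 22 gene lists (number tested in brackets) for the lower step (open circles), the upper step (red) and the same step of Bupleuri Radix (blue crosses). NF-kB targets (1.08) and immediate early genes (0.78) are highest and ID and BMP genes (-0.72) lowest in the upper step, and cholesterol, mitochondrial, YAP and TGF-beta lists change sign between the steps.

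The same 5-fold step of Bupleuri Radix, from the same code set, called 283 genes (1.65%). The difference between the Aconiti step and the Bupleuri step was called in 5409 genes (31.5%), and in all 331 late-starting genes, whose class was set by the same Aconiti step. All 30 mitosis genes differed in this test, with a median Bupleuri step of -0.07, as did 20 of the 24 NF-kB targets (median Bupleuri step 0.11). Other lists also moved under Bupleuri. Its step was called in 10 of 21 ID and BMP genes (median -0.3) and in 12 of 26 NRF2 targets (median 0.16). The 2 extracts differed in 13 of these 21 and in 15 of these 26 genes. CXCL8 rose under Bupleuri too, by 0.68 (adjusted p = 6.2e-05), and the Aconiti step was larger (adjusted p = 1.91e-21). CYP24A1 fell by 0.54 under Bupleuri (adjusted p = 2.29e-08) and ID2 by 0.81 (adjusted p = 2.38e-11), both less than under Aconiti. CHAC1, which was level in the Aconiti step, had no called difference between the extracts (adjusted p = 0.856), and NQO1, an NRF2 target, rose by 0.45 under Bupleuri and 0.39 under Aconiti without a called difference (adjusted p = 0.541).

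Against the vehicle, which shares its 3 libraries among all such comparisons, 377 genes (2.19%) were called at the low dose, 5348 (31.1%) at the medium dose and 10386 (60.4%) at the high dose. Of the 331 late-starting genes, 9 were called at the low dose and 90 at the medium dose against the vehicle. The shares over all genes tested were 2.19% and 31.1%. By its rule, late means late relative to the 20 µg/mL level, and the vehicle has codes of another set. TXNIP had 9.31, 8.44 and 8.38 CPM in the vehicle, above all Aconiti libraries, so its rise at the high dose was partial with respect to the vehicle.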

How the data were processed

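RNA was sequenced from SW1783 cells treated for 24 h. The deposited table holds expected counts per gene made by the authors with RSEM 1.3.3, and the submitters' processing notes also name STAR 2.7.3a, Trim Galore 0.6.5, FastQC 0.11.9 and the builds hg38 and GRCh38. Of its values 9.22% were not whole, and all were rounded. RSEM divides reads that map to several genes by estimate, so paralogs are uncertain. The kit was directional, per the labels' protocols, but no source used here gives the strand setting of the counting, so antisense pairs are uncertain.

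Groups came from the sample titles. Of 60675 genes, 17190 passed edgeR's filterByExpr and were fitted with the quasi-likelihood test (edgeR 4.0.16, R 4.3.3) over 57 libraries of 19 groups with TMM factors. P-values were adjusted by Benjamini and Hochberg over all genes tested, and a gene was called under 0.05. The CPM values printed are scaled by TMM. Gene symbols came from the reference tables, with 41209 genes given one. Alternatives were DESeq2 1.42.0, other scaling, no filter on low counts, no mitochondrially encoded genes, a replicate block, fewer groups and libraries left out.

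The labels do not say what a replicate number marks. Same-numbered low and medium libraries deviated together from their group means (r = 0.161, 0.151 and 0.25 across genes), so for that step the numbers were taken to pair the libraries, a pairing that comes from the data. The values and classes printed for that step nonetheless come from the fit without a replicate block. With the block, 3475 genes were called from low to medium, including 3438 of the 3507. For medium and high the values were 0.139, 0.097 and 0.289, and 1 was too low for pairing to be taken.

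The members and gene lists were chosen with earlier results of these data known. Genes were named as the 14 largest rises and falls with at least 5 CPM in the higher group, 8 per class and direction, and for each list the lowest adjusted p-values and its reversing and levelling members. Other genes were named after their values were seen. The motifs described, of 15 searched, and the genes whose promoters are printed were also chosen after their values were seen. Results for some genes are not reported here.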

Additional observations from a re-analysis of the deposited data

Results flagged for a closer look

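The step from 100 to 500 µg/mL differed between Aconiti Lateralis Radix Preparata and Bupleuri Radix in 5409 genes by a contrast of both steps in the same edgeR fit (adjusted p under 0.05), which is why it is listed here. The difference was positive in 2873 genes and negative in 2536. HMOX1 rose in both, by 2.39 ± 0.0419 under Aconiti and by 0.40 under Bupleuri on the log2 scale (adjusted p of the difference = 4.78e-30).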

How the results depend on the processing

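No gene called in a comparison of doses or extracts was called with the opposite sign under the alternatives run; against the vehicle, 5 of the 10386 genes called at the high dose were, with no scaling factors. DESeq2 called 7522 genes from medium to high, including 7498 of the 8092. Libraries left out 1 at a time were from the Aconiti and vehicle groups, so no Bupleuri library was left out. Leaving out 1 library gave 7240 to 7571 calls from medium to high, 2692 to 3037 from low to medium, 2140 to 2799 for the difference of the steps, 4926 to 5133 for the difference from Bupleuri, 9708 to 9965 and 4349 to 4827 for the high and medium dose against the vehicle, and 163 to 320 for the low dose against the vehicle. The last was 377 with all libraries, 199 without low replicate 2, 163 without low replicate 3, 190 and 205 without vehicle replicates 1 and 2, and 574 without 2 libraries of another code set that deviated most from their group, which was added after seeing the data.

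The class sizes depend on their limits. The 331 late starts became 142 with an interval of 0.2 either side, 966 with a step of 0.3 and 30 with a step of 1, and 307 to 352 without 1 library. The 8 levelling genes became 5 with DESeq2, 4 to 8 without 1 library, 1 and 14 with intervals of 0.2 and 0.4, and 28 and 1 with steps of 0.3 and 1. The 172 reversals became 402 with no scaling factors, 43 with both steps at least 0.3 and 117 to 163 without 1 library, and continued change covered 1925 to 2457 genes without 1 library. With no scaling factors the step from low to medium split into 945 rises and 3632 falls. The median of 7 AhR targets was 0.16 and turned to -0.28 with only the groups compared, and to -0.30, -0.25 and -0.28 without high replicate 3 and medium replicates 1 and 2, and was 0.32 without medium replicate 3. The value of 0.16 was that of UGT1A6, a scarce gene with 0.124 CPM at the medium dose and 0.142 CPM at the high dose (SE 0.909, adjusted p = 0.91). The nearest members on either side were AHRR at -0.27 and TIPARP at 0.28. The cause of the turns was not tested.

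With a replicate block, 8073 genes were called from medium to high, where the numbers were not taken to pair the libraries, and 3475 from low to medium, where they were. The difference of the steps had 2931 calls with the block, late starts came to 328, levelling genes to 8 and reversals to 173, so that no count moved by over 1.5 times. Over the 3 doses, same-numbered libraries correlated at 0.079 to 0.289 (9 pairs) and others at -0.227 to 0.125 (18 pairs), and 7 of the 9 libraries correlated best with their own number in both other doses.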

Other observations

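Immediate early genes, transcription factors that answer quickly to signals, rose in 19 of 27 from medium to high, fell in 4 and were not called in 4, with a median of 0.78 against 0.20 in the lower step. The difference of the steps was called as positive in 15 of the 27. Antigen presentation genes rose in 9 of 13, with none falling and a median of 0.21, while 2 of the 13 rose in the lower step. Genes of heme, ferritin and iron rose in 8 of 13 in both steps, with medians of 0.20 and 0.29.

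Selenoproteins fell in 7 of 17 and rose in 4, and WNT receptors and feedback genes fell in 8 of 13 and rose in 1. Cytosolic aminoacyl-tRNA synthetases, which load tRNAs with amino acids, rose in 12 of 20 in each step, by a median of 0.42 and then 0.24, and in 5 of the 20 the upper step was called as smaller. Neuron markers were tested for 6 of 10, of which 3 fell and 2 rose from medium to high. Their summed level was 141 to 156 CPM at the low dose, 108 to 117 CPM at the medium dose and 66.9 to 68.3 CPM at the high dose.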
